A study of Mus musculus with 6 samples.

Results

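The genes described here encode 35 proteins that join the spliceosome when it is activated and during its catalytic steps: the PRP19 complex and its partners, proteins of the B, Bact and C complexes, DEAH-box helicases and second step factors. They were chosen by name, with earlier results of these data known. All 35 were found among the 25351 genes with a symbol in the expression table, which lists 56246 genes, and all 35 passed the filter on low values that left 11001 genes to test. CD4+ T cells were taken from the lymph nodes and spleen of adult male mice and their RNA was sequenced to ask how the loss of CD2BP2/U5-52K, a protein of the U5 snRNP, affects RNA in these cells. The 3 cKO libraries carry U5-52K f/f with CD4-Cre tg. Control 1 and Control 2 are wt/f with CD4-Cre tg, and Control 3 is f/f without Cre. All mice thus carry at least 1 floxed allele, and Control 3 differs from the other Control libraries in both Cre and the number of floxed alleles, so that a trait of Control 3 cannot be told apart from its genotype. CD4-Cre acts from the CD4+ CD8+ stage of the thymus, so that the deletion is older than the cells sequenced.

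The B complex forms when the U4/U6.U5 tri-snRNP joins a spliceosome that already holds U1 and U2. The PRP19 complex then enters, U1 and U4 leave, and the activated Bact complex results. DEAH-box helicases remodel it into the B* complex, in which branching takes place, and later into the C* complex, in which the exons are joined. U5-52K is bound to the U5 snRNP, and the paper concludes that it leaves U5 when a stable tri-snRNP forms. The proteins described here join with or after the tri-snRNP. In human HEK cells, however, the paper lists IK, DHX38 and AQR in the crosslinked U5-52K complex, each in some but not all experiments.

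The Control libraries held 56995121 to 75606222 reads in genes and the cKO libraries 69981159 to 82286366. Cd2bp2, the targeted gene, had normalised read counts of 2624, 2602 and 2612 in Control and 884, 874 and 738 in cKO, and lay at 31.8% of the Control mean. Its groups do not overlap and its fall passed the test (limma adjusted p = 0.00137). Summed counts of 8 T cell markers were 481806 to 553461 in Control and 462204 to 499658 in cKO. Library cKO 1 stood apart: its 9 myeloid markers summed to 25345 against 3037 to 6033 in the other libraries, and its 10 cell cycle genes to 15768 against 4144 to 5871. The 7 B cell markers summed to 9044 to 12012 in Control and 4301 to 8060 in cKO. The study's methods describe a sort of CD4+ CD8- cells from these organs and name stains for CD4 and CD8 only. How far other cells passed that gate was not tested. In bulk RNA, fewer cells of a type and less RNA per cell cannot be told apart.

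All 35 genes were transcribed at moderate to high levels. The Control means ran from 1449 normalised reads for Dhx35 to 17607 for Syf2, with a median of 7221, against a median of 2193 over all 11001 tested genes. The lowest of the 35 lay at the 39.8th percentile of tested genes. Divided by the length of all annotated exons, the level was highest for Syf2 (8618 ± 809 normalised reads per kb, SD, n = 3) and lowest for Dhx35 (280 ± 35.7). Syf2 encodes a partner of the PRP19 complex and Dhx35 a DEAH-box helicase found in catalytic spliceosomes. After Syf2 came Smu1 of the B complex at 4342 ± 422 per kb, whose replicates do not overlap those of Syf2. Below it stood Mfap1a at 3260 ± 412, Cwc15 at 3247 ± 224 and Ctnnbl1 at 3119 ± 353, which differed from each other by less than their spread. Prpf19, the ubiquitin ligase that gives the complex its name, stood at 905 ± 45.7 per kb. Its core partners Cdc5l and Bcas2 stood at 2360 ± 346 and 2496 ± 352. Before division by length the Control means of Prpf19, Cdc5l and Bcas2 were 6587, 7786 and 10958. Their annotated exons span 7.28, 3.3 and 4.39 kb. The level per kb depends on this annotated length, and the length transcribed in these cells was not measured. Mfap1a has a near-identical copy, Mfap1b, and its counts are uncertain for that reason.

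**Figure D1:**
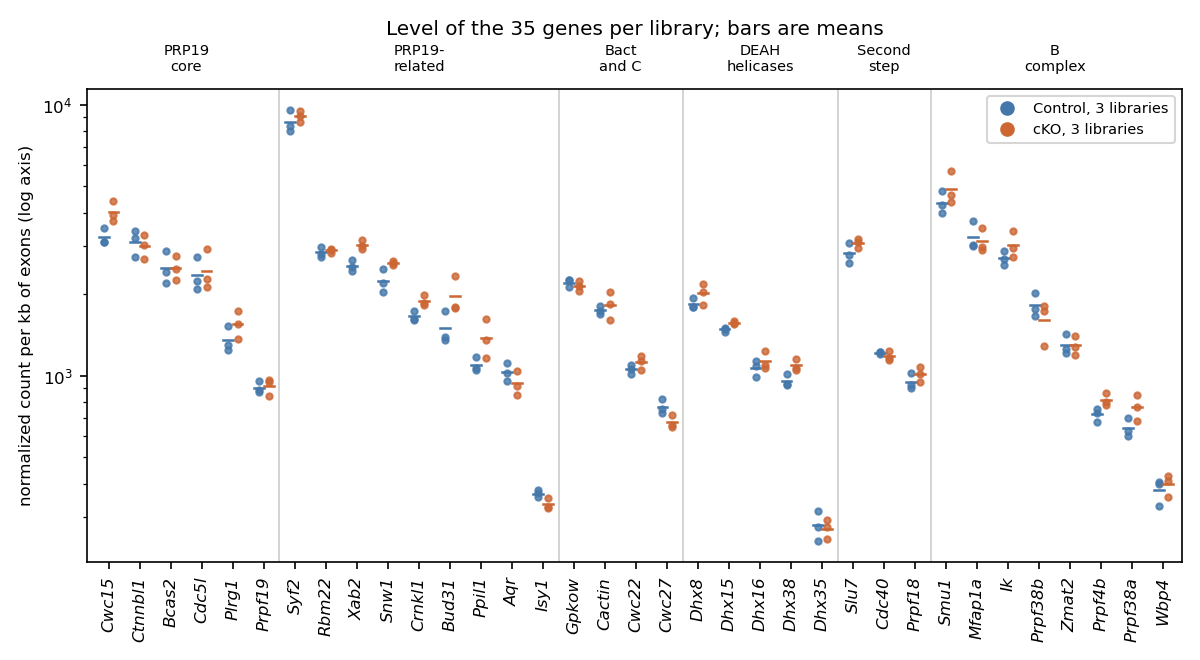
Normalised read count per kb of exons (log axis) of the 35 genes, grouped by their place in the spliceosome and ordered by level. Points are the 3 Control and 3 cKO libraries and bars are means; Syf2 is highest and Dhx35 lowest, and the order of the genes is much the same in cKO points as in Control points.

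None of the 35 genes passed the test between cKO and Control. limma on log2(normalised count + 1) called 0 of 35 at an adjusted p under 0.05, where it called 107 of 11001 genes, a share of 0.973% of which 0.673% rose and 0.300% fell. edgeR called 0 of the 35 (1.02% of all tested genes) and DESeq2 called 1, Xab2 (8.42% of all tested genes). At an unadjusted p under 0.05 limma picked out 4 of the 35 (11.4%), against 16.7% of all tested genes. The log2 fold changes lay between -0.19 and 0.40 with a median of 0.08, and the median over all tested genes was 0.01. The 95% confidence interval of every one of the 35 stayed inside a 2-fold change in either direction, which was so for 82.1% of all tested genes. An absolute log2 fold change above 0.5 was measured for 0 of the 35 and for 13.2% of all tested genes.

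**Figure D2:**
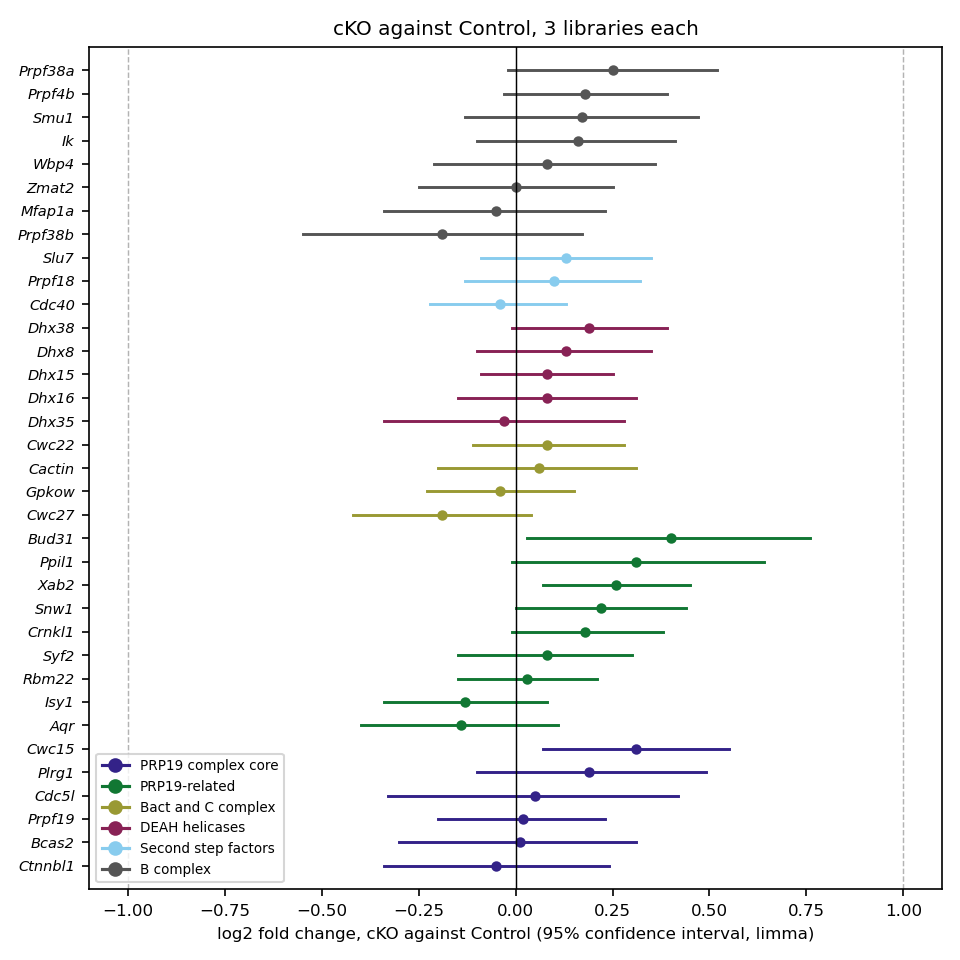
log2 fold change of cKO against Control for the 35 genes, coloured by role, with the 95% confidence interval from limma (3 libraries a group). Points run from -0.19 to 0.40 and every interval ends inside the dashed lines at a 2-fold change.

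These genes were also measured with a small spread. The SD of log2 values within a condition had a median of 0.105 over the 35, against 0.182 over all tested genes and 0.151 over the 7480 genes with a Control mean over 1000. The SE of the log2 fold change was 0.07 to 0.16. Above 0 lay 25 of the 35 log2 fold changes (71.4%, and 51.8% of all tested genes). This count was 24 under TMM scaling and 21 after quantile normalisation, with medians of 0.07 and 0.04. In 8 of the 35 genes every cKO library lay above every Control library (22.9%), and this was so for 12.6% of all tested genes. In 2 of the 35 every cKO library lay below, as in 11.5% of all tested genes.

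The library shifts differed within each condition. Measured as log2 distance from the Control mean of each gene, the median of the 35 was -0.05 in Control 1, -0.03 in Control 2 and 0.07 in Control 3. In the cKO libraries it was 0.12, 0.01 and 0.11. Control 3, without Cre, thus lay above cKO 2. Control 3 was the highest Control library for 21 of the 35 genes (60.0%), and over all tested genes for 43.4%. cKO 1, the library with high myeloid and cell cycle markers, was the highest cKO library for 22 of the 35 (62.9%), against 44.7% of all tested genes. It also held both extremes, Bud31 at 0.66 and Prpf38b at -0.50. The 4 erythroid markers summed to 4063 in Control 3 and 3076 in cKO 1, against 171 to 484 in the other libraries. No marker of the lists was at 0 in all libraries, and the part of other cells in these shifts was not tested.

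**Figure D3:**
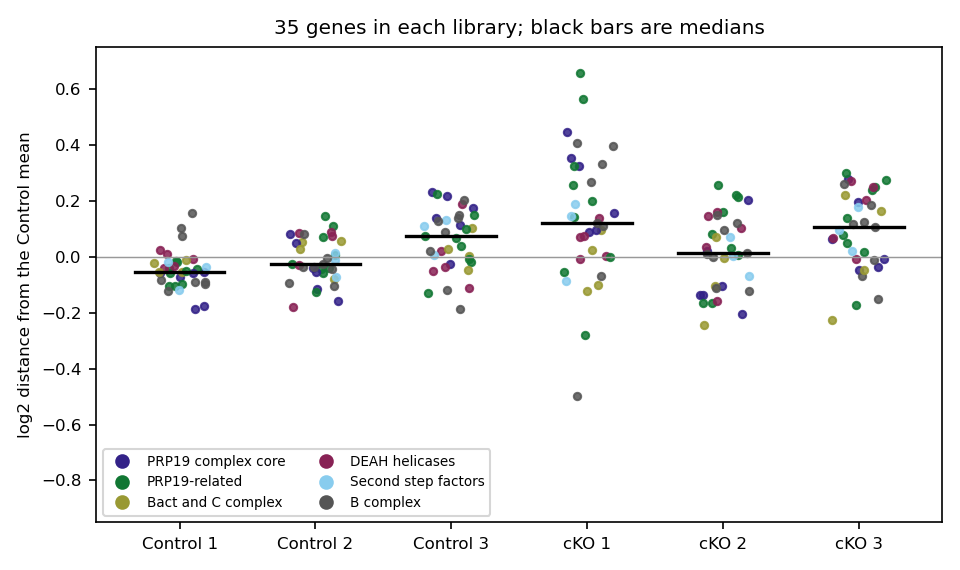
log2 distance of each of the 35 genes from its Control mean in the 6 libraries, coloured by role, with the median as a black bar. The medians run from -0.05 in Control 1 to 0.12 in cKO 1, and cKO 1 has the widest scatter.

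The count of 8 separated genes can only stay or rise when a library is left out, since fewer values then have to lie apart. Counts with a library left out are therefore no check of how stable the 8 are. Without cKO 1 the count was 11, with 20.1% of all tested genes separated in that direction. Without Control 3 it was 16, with 22.0% of all tested genes, and without cKO 2 it was 14 with 18.6%. The median log2 fold change of the 35 was 0.07 without cKO 1 and 0.11 without Control 3.

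The PRP19 complex core comprises the ligase Prpf19 and its partners Cdc5l, Plrg1, Bcas2, Ctnnbl1 and Cwc15. Of these 6 genes, 5 had a log2 fold change above 0, with a median of 0.03. Prpf19 itself had 6337, 6964 and 6459 normalised reads in Control and 6993, 6118 and 6876 in cKO, a log2 fold change of 0.02 (SE 0.09). The Prpf19 groups overlap throughout. Cwc15, a small core protein of the complex encoded on chromosome 9 (14500617 to 14510577, + strand), had 4889, 4905 and 5507 normalised reads in Control and 6931, 5862 and 6172 in cKO. All cKO libraries lay above all Control libraries for Cwc15, with cKO 1 highest. Its log2 fold change was 0.31 (SE 0.10, limma adjusted p = 0.207) and 0.24 without cKO 1.

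The PRP19-related group held 4 of the 6 largest absolute log2 fold changes, and Cwc15 and Prpf38a of other groups held the rest. It consists of Crnkl1, Xab2, Isy1, Syf2, Bud31, Ppil1, Aqr, Snw1 and Rbm22, among them the TPR-repeat scaffolds Crnkl1 and Xab2, the intron-binding helicase Aqr and the RNA-binding protein Rbm22. The median log2 fold change of these 9 genes was 0.18, 7 lay above 0, and in 4 every cKO library lay above every Control library, beside the 12.6% of all tested genes.

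Bud31, a small zinc-binding protein of the activated spliceosome (chromosome 5, 145140362 to 145148078, + strand), had 2231, 2189 and 2797 normalised reads in Control and 3766, 2858 and 2892 in cKO. The groups of Bud31 do not overlap, but Control 3 and the lower cKO libraries lie close together, and cKO 1 stands far above. Its log2 fold change was 0.40 (SE 0.15, 95% interval 0.03 to 0.76, limma adjusted p = 0.266), the largest of the 35. It was 0.27 without cKO 1 and 0.51 without Control 3.

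Xab2, a scaffold that also takes part in transcription-coupled DNA repair (chromosome 8, 3608421 to 3621316, - strand), had 11757, 11411 and 12513 normalised reads in Control and 14880, 13779 and 14035 in cKO. All cKO libraries were higher than all Control libraries, by a margin wider than the spread inside either group. Xab2 lay at 120% of the Control mean, with a log2 fold change of 0.26 (SE 0.08). limma and edgeR both gave an adjusted p of 0.188, and DESeq2 gave 0.0416. Without cKO 1 the log2 fold change was 0.23.

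Snw1, which encodes the scaffold protein SKIP (chromosome 12, 87449075 to 87472274, - strand), had 14501, 16269 and 13451 normalised reads in Control and 16884, 17130 and 17463 in cKO. The cKO libraries were almost equal and all above Control, and Control 3 was here the lowest. The log2 fold change was 0.22 (SE 0.09, limma adjusted p = 0.294). Ppil1, a cyclophilin-type peptidyl-prolyl isomerase bound to SKIP (chromosome 17, 29250803 to 29264186, - strand), had 2636, 2663 and 2938 normalised reads in Control and 4058, 2899 and 3373 in cKO. The groups overlap, since cKO 2 lay below Control 3. Its log2 fold change of 0.31 (SE 0.14, limma adjusted p = 0.315) became 0.19 without cKO 1.

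Isy1 and Aqr had the lowest log2 fold changes of the group. Isy1, a component that stays with the spliceosome through both catalytic steps, had 2398, 2484 and 2541 normalised reads in Control and 2385, 2207 and 2196 in cKO. All cKO libraries lay below all Control libraries, with cKO 1 only just below. The log2 fold change was -0.13 (SE 0.09, limma adjusted p = 0.520). Aqr was at -0.14 (SE 0.11) with overlapping groups.

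Among the Bact and C complex genes, Cwc22, Cwc27, Gpkow and Cactin, the values split evenly, with 2 above and 2 below 0. Cwc22 recruits the exon junction complex factor eIF4A3 to spliceosomes, and Cwc27 is a cyclophilin-like protein that binds Cwc22. Cwc27 had 2170, 2087 and 2363 normalised reads in Control and 2055, 1861 and 1883 in cKO. Its groups do not overlap, and the gap between Control 2 and cKO 1 is narrow. The log2 fold change was -0.19 (SE 0.10, limma adjusted p = 0.391), while Cwc22 was at 0.08 (SE 0.08).

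The DEAH-box helicases drive the remodelling steps in turn: Dhx16 (yeast Prp2) before branching, Dhx38 (Prp16) after it, Dhx8 (Prp22) for release of the mRNA and Dhx15 (Prp43) for disassembly. Their log2 fold changes were 0.08, 0.19, 0.13 and 0.08, and that of Dhx35 was -0.03. Dhx38 and Dhx15 had all cKO libraries above all Control libraries. Dhx15 had 12678, 12343 and 12793 normalised reads in Control and 13265, 13533 and 13207 in cKO, which is 106% of the Control mean. None of the 5 helicases passed the test (limma adjusted p from 0.333 for Dhx38 to 0.939 for Dhx35). The second step factors Slu7, Prpf18 and Cdc40 (yeast Prp17) lay at 0.13, 0.10 and -0.04, all with overlapping groups.

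The B complex genes ranged from -0.19 to 0.25, with 5 of 8 above 0. These proteins enter with or after the tri-snRNP and many leave on activation. Prpf38a (chromosome 4, 108563172 to 108579336, - strand) had 3186, 3302 and 3701 normalised reads in Control and 4492, 3616 and 4061 in cKO. Its groups overlap, as cKO 2 lay below Control 3. The log2 fold change was 0.25 (SE 0.11, limma adjusted p = 0.328), and 0.18 without cKO 1. Its partners Smu1 and Ik, which form part of the same B complex module with Mfap1a, were at 0.17 (SE 0.13) and 0.16 (SE 0.11), while Mfap1a was at -0.05 (SE 0.12). Prpf38b had 14044, 12284 and 11589 normalised reads in Control and 8929, 12590 and 12011 in cKO. Here cKO 1 alone was low, and the log2 fold change of -0.19 was -0.03 without it. The kinase Prpf4b was at 0.18 with all cKO libraries above Control, and the remaining genes Wbp4 and Zmat2 had overlapping groups.

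Other spliceosome genes gave a background for these values. Of 38 further genes of the activated spliceosome, 0 passed in limma or edgeR, with 6 at an unadjusted p under 0.05 in limma and a median log2 fold change of 0.09. DESeq2 called 3 of them: Smndc1, at 199% of the Control mean (adjusted p = 0.00178), Ppie at 131% (adjusted p = 0.0154) and Cdk11b at 126% (adjusted p = 0.0339). These genes were named after their values were seen. The 7 U5 snRNP genes other than Cd2bp2 had a median of 0.48 and 3 of them rose: Prpf8 (1.12, adjusted p = 0.0220), Snrnp200 (1.27, adjusted p = 0.00575) and Txnl4a (0.86, adjusted p = 0.0218), by limma. Txnl4a overlaps another gene on the same strand and its reads are uncertain. Of 16 U4/U6 and tri-snRNP genes, 1 passed in limma, Prpf3, with a log2 fold change of 1.66 (limma adjusted p = 0.00137), and the median was 0.18. DESeq2 also called Sart1 at 146% of the Control mean (DESeq2 adjusted p = 1.04e-05, limma 0.0506) and Prpf4 at 119% (DESeq2 adjusted p = 0.0220, limma 0.201). DESeq2 called 8.42% of all tested genes. Above 0 lay 15 of the 16 log2 fold changes, against 51.8% of all tested genes. The U5 and tri-snRNP genes act before or during the joining of the tri-snRNP, and Prpf8 and Snrnp200 stay through activation. Whether the 35 genes differ from these lists was not tested.

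Splicing of the 35 transcripts was read from rMATS counts. An event is a choice between an inclusion and a skipping form, and the inclusion level is the share of the inclusion form after division by form length. The 5 classes are skipped exons (SE), mutually exclusive exons (MXE), alternative 3′ and 5′ splice sites (A3SS, A5SS) and retained introns (RI). In the 35 genes 162 events were listed and 157, in 31 genes, had enough reads to test: 110 SE in 102 distinct exons, 13 MXE, 18 A3SS, 5 A5SS and 11 RI. Dhx38, Mfap1a, Ppil1 and Cwc15 had none. The rMATS values do not name their library, so that "first value" below is not assigned to cKO 1 or Control 1. Whether the values stand in the order of the libraries was not tested.

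No event of these genes was called at an FDR under 0.01 and a difference of 10 points or more. The quasi-binomial test called 0 of 157, against 259 of all 55912 events, a share of 0.463%. By class, the shares of all events were 0.493% of SE, 0.250% of MXE, 0.584% of A3SS, 1.08% of A5SS and 0.181% of RI. limma on logit inclusion levels called 0 of 157, but it called only 4 of all 39173 SE events and 0 in each of the other 4 classes. At an unadjusted p under 0.05 stood 12 of 157 (7.64%), and of all events 9.36%. Most tested exons of these genes were close to constitutive, and so were most over all SE events. Of the 110 SE events, 96 had a Control inclusion of 95% or more, 8 had 5% or less and 6 lay between. Of all 39173 SE events, 31263 had 95% or more, 2257 had 5% or less and 5653 lay between. Inclusion was lower in cKO in 72 of 110 SE events (65.5%), the same share as over all 39173 SE events (65.5%). The median difference was -0.08 points for the 110 and -0.18 points for all SE events. A difference of 5 points or more was measured in 1 of the 110 (0.909%) and in 9.33% of all SE events.

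**Figure D4:**
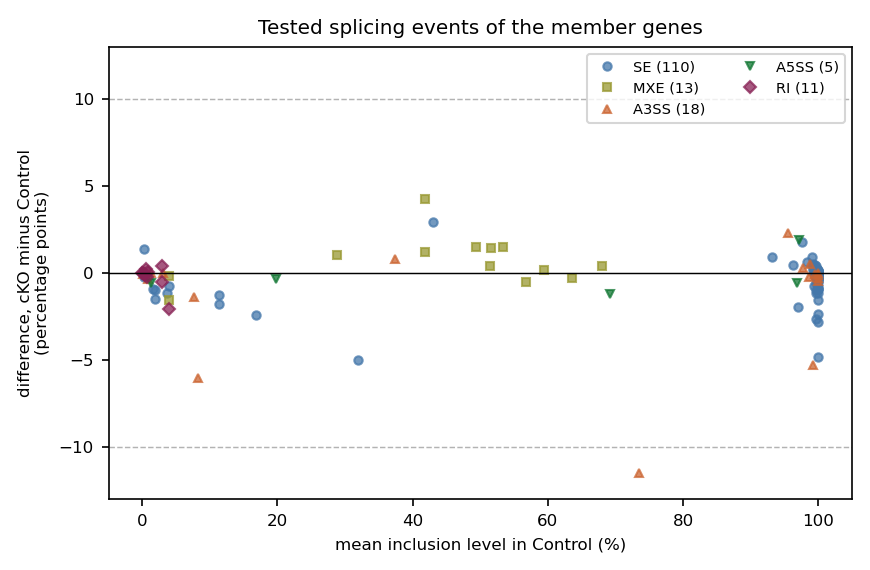
Difference in mean inclusion level (cKO minus Control, percentage points) against the mean inclusion level in Control (%) for the 157 tested events, by class. Most SE events sit near 100% and near a difference of 0; the only point beyond a dashed line at 10 points is the Bcas2 A3SS event at -11.51.

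Skipping reads of 4 coding exons are given in full. The exons are printed here with 20 bases of the neighbouring exons on either side, since these are the letters that the skipping junction leaves out and joins. Capitals mark the exon and small letters the flanking exons, in the direction of transcription, from GENCODE M21 transcripts on GRCm38. The Isy1 and Cwc27 exons were chosen after their values were seen.
Xab2 exon 10 of 19, chr8:3613368-3613499, - strand: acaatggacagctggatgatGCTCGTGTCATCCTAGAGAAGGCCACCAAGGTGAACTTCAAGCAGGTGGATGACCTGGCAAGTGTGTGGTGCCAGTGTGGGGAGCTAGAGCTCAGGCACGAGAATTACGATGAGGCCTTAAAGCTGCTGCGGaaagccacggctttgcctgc
Bcas2 exon 5 of 7, chr3:103175619-103175669, + strand: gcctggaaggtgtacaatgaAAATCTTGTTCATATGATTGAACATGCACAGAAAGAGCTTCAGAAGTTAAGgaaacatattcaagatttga
Isy1 exon 5 of 11, chr6:87833642-87833684, - strand: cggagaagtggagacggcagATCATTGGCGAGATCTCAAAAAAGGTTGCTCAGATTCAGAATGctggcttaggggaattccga
Cwc27 exon 11 of 14, chr13:104720422-104720519, - strand: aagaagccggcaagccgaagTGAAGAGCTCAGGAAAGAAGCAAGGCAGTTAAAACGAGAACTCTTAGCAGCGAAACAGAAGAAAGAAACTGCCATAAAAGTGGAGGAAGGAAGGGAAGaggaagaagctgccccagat

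The Xab2 exon has 132 bases, a multiple of 3, and its loss shortens the reading frame of Xab2-201 from 855 to 811 codons. Reads that skip it numbered 4, 3 and 0 in Control and 11, 32 and 37 in cKO, beside 1095, 1291 and 921 inclusion reads in Control and 1402, 1637 and 1666 in cKO. Every cKO value lay above every Control value, and the first cKO value was well below the other two. Length-scaled skipping was 0.373% ± 0.346 (SD, n = 3) in Control and 3.01% ± 1.36 in cKO. Inclusion of the exon differed by -2.64 points (quasi-binomial FDR = 0.00355), which passes the FDR but not the 10 points asked for a call. An FDR under 0.01 was found for 1 of the 110 SE events (0.909%) and for 1.08% of all SE events. The same skipping reads also enter an A3SS event of Xab2 whose long form joins exon 10, the next intron and exon 11, with inclusion at 99.2% in Control and 93.9% in cKO (quasi-binomial FDR = 0.000877). The pair of events is therefore 1 observation. By limma on logit inclusion the exon had an FDR of 0.160, and without the third cKO value the quasi-binomial FDR was 0.0508.

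The Bcas2 exon has 51 bases, and without it the frame of Bcas2-201 falls from 225 to 208 codons. Bcas2 (also called SPF27) is a core protein of the PRP19 complex. Skipping reads numbered 49, 41 and 39 in Control and 68, 80 and 118 in cKO, beside 1702, 2142 and 1875 inclusion reads in Control and 2156, 2197 and 2433 in cKO. The groups do not overlap in skipping, at 3.72%, 2.50% and 2.72% against 4.06%, 4.66% and 6.11%, but the lowest cKO value is near the highest Control value. Inclusion differed by -1.96 points (quasi-binomial FDR = 0.0665). The same junction stands in an A3SS event, where inclusion was 73.5% in Control and 62.0% in cKO, a difference of -11.51 points (quasi-binomial FDR = 0.0270). There the long form spans exon 5, the next intron and exon 6, and exon reads are divided by that greater length, so the same skipping reads weigh more. FDRs under 0.05 were found for 2 of the 18 A3SS events of these genes, those in Xab2 and Bcas2, and for 2.01% of all A3SS events. A retained intron event of Bcas2 shares the junction too, with 3.99% inclusion in Control and 1.95% in cKO (quasi-binomial FDR = 0.230). The Bcas2 gene as a whole had 9629, 10594 and 12650 normalised reads in Control and 12152, 9911 and 10831 in cKO, a log2 fold change of 0.01 (SE 0.13).

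The Isy1 exon has 43 bases, which is not a multiple of 3, and without it the frame of Isy1-201 ends after 50 of 285 codons. It was skipped by 0, 0 and 0 reads in Control and by 6, 6 and 2 in cKO, beside 1601 inclusion reads over Control and 1917 over cKO. The 0 of Control allows a share of up to 0.241%, and the cKO mean was 0.942% ± 0.489. The unadjusted p was 0.00926 and the FDR 0.242 (quasi-binomial model). An event with a longer form of this exon, of 85 bases, uses the same skipping reads. The Cwc27 exon has 98 bases, and its loss ends the frame of Cwc27-201 after 331 of 469 codons. Skipping reads numbered 0, 0 and 0 in Control and 2, 11 and 2 in cKO, so that the second cKO value holds most of them. The Control limit was 0.532% and the cKO mean 2.33% ± 2.31, at an unadjusted p of 0.00649 and an FDR of 0.197 (quasi-binomial model). Isy1 and Cwc27 are also the 2 genes in which every cKO library lay below every Control library, as in 11.5% of all tested genes. They stood at 91.4% and 87.6% of the Control mean. Whether these measurements go together was not tested.

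**Figure D5:**
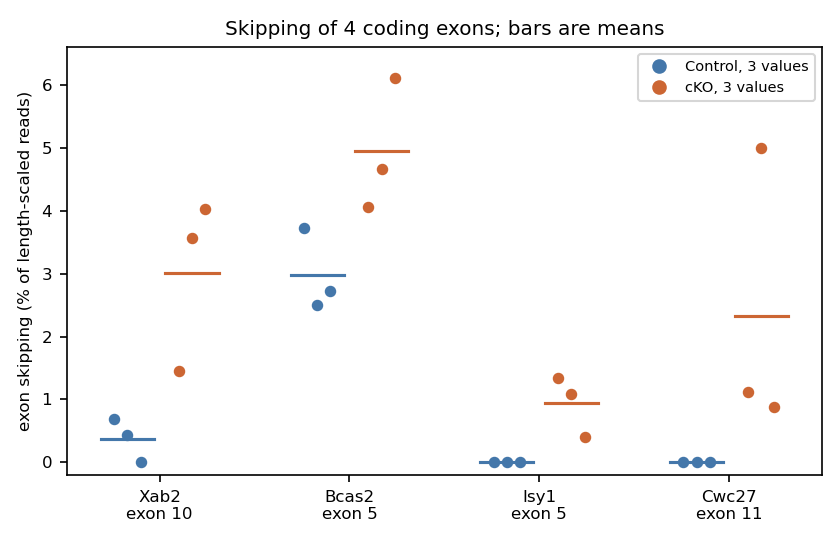
Share of the skipping form (% of length-scaled reads) of 4 coding exons for 3 Control and 3 cKO values, with means as bars. Control values of Isy1 and Cwc27 are all at 0, Xab2 lies at 0 to 0.684% in Control and 1.46% to 4.02% in cKO, and Bcas2 is skipped in both conditions.

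Skipping seen in cKO alone was not limited to these exons. Of the 110 SE events, 5 (4.55%) had no skipping read in any Control value and at least 1 in every cKO value, and over all SE events this was 1.86%. The reverse pattern was found in 0 of 110 and in 0.179% of all SE events. The 5 events are 4 exons: besides Isy1, with 2 events, and Cwc27, an exon of Ctnnbl1 with 1 skipping read in each cKO value, and an exon of Wbp4 with 1, 2 and 4. Unlike Isy1 and Cwc27, the genes Ctnnbl1 and Wbp4 had overlapping expression groups, at 96.5% and 105% of the Control mean. The cKO libraries held more reads in genes than the Control libraries in the median. The level of the 35 genes was also high, with a median at the 80.8th percentile of tested genes. The share over all SE events is not matched for level, and the part of depth in these counts was not tested. The upper limits given for a count of 0 cover counting error only.

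Differences of 5 points or more were otherwise found for an alternative 3′ splice site of Dhx35 and an exon of Slu7. In Dhx35 the upstream site adds 20 bases (chr2:158815410-158815429, + strand), printed in capitals between its neighbours because these letters tell the 2 forms apart.
Dhx35 extension: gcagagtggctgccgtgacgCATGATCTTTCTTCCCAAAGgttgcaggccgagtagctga
The extension is annotated in Dhx35-205, a transcript without a coding sequence. It was used at 11.3%, 6.67% and 6.84% in Control and at 1.88%, 1.28% and 3.64% in cKO, without overlap. The values rest on 9, 6 and 5 long-form reads in Control and 1, 1 and 3 in cKO, and the difference of -6.02 points did not pass (quasi-binomial FDR = 0.473, unadjusted p = 0.0497). The Slu7 exon has 79 untranslated bases in Slu7-205 (chr11:43436354-43436432, + strand). Its inclusion was 32.9%, 30.9% and 31.8% in Control and 26.1%, 24.3% and 30.1% in cKO, also without overlap, and the difference of -5.02 points did not pass (quasi-binomial FDR = 0.606). Paired with another upstream exon, the same Slu7 exon was at 93.2% in Control and 94.1% in cKO.

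Other alternative sites of Cwc22 and Prpf38b had overlapping values in the 2 conditions. In Cwc22, a pair of 3′ splice sites that lie 3 bases apart (chr2:77932764-77932766, - strand) was used side by side, and the capitals mark the bases that the upstream site adds.
Cwc22 extension: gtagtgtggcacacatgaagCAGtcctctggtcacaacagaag
The longer form was at 40.1%, 36.2% and 35.9% in Control and 38.0%, 36.4% and 40.1% in cKO, a difference of 0.81 points (unadjusted p = 0.753, quasi-binomial model). An untranslated exon of 61 bases in Cwc22 was included at 43.0% in Control and 46.0% in cKO. Prpf38b held exons annotated in transcripts of nonsense-mediated decay, of 71 and 53 bases, at 16.8% and 11.4% in Control and at 14.4% and 9.65% in cKO. The MXE differences lay between -1.56 and 4.25 points. Retained introns were rare: RI inclusion had a Control mean of 0.0131% to 3.99% over the 11 events, and the differences lay between -2.04 and 0.43 points. Both 3.99% and -2.04 points belong to the Bcas2 event that shares the exon skipping junction, so they do not measure intron retention alone. The next values were 2.94% in Control for Xab2 and a difference of -0.52 points for Ik.

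By place in the spliceosome, the 12 events at an unadjusted p under 0.05 fell into 5 of 49 events in PRP19-related genes, 3 of 25 in the PRP19 core, 2 of 17 in helicases and 2 of 15 in Bact and C complex genes, and the share of all events was 9.36%. None fell among 37 events of B complex genes or 14 of second step factors. Inclusion was higher in cKO in an A3SS event of Dhx15, an A5SS event of Gpkow and an RI event of Syf2. Their differences were 2.29, 1.92 and 0.22 points, with quasi-binomial FDRs of 0.265, 0.305 and 0.521. In the rest of the 12 inclusion was lower in cKO. The 3 events of the PRP19 core all hold the Bcas2 junction, and events of Xab2 and of Isy1 share junctions too.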

How the data were processed

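RNA of CD4+ T cells from 3 Control and 3 cKO libraries was sequenced as paired-end reads. Adaptors were removed by the authors with cutadapt and reads were mapped to GRCm38 with STAR, as the submitters' processing notes name them, and then counted per gene with featureCounts. The annotation release and strand setting of that counting are not given in the sources used here. Per gene and library, the authors deposited a signal, the count per gene divided by a DESeq2 size factor, and 100% of values in each library gave whole reads within 0.01. The authors deposited rMATS counts of inclusion and skipping reads per event and form lengths, with 3 values a condition and no library names. The deposited comparison of conditions was not used. Depth limits splicing values whose junctions hold few reads.

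Named genes whose mean reached 100 in Control or in cKO entered limma 3.58.1 (R 4.3.3) on log2(normalised count + 1), which understates changes of low genes, with a variance trend and Benjamini-Hochberg adjustment over all 11001 genes. Whole reads were tested with edgeR 4.0.16 (quasi-likelihood) and DESeq2 1.42.0. Splicing events whose reads averaged 20 or more in each condition entered a quasi-binomial logistic model whose dispersion was moderated across events with a floor of 1, adjusted within the class. Called events needed an FDR under 0.01 and 10 points. Exons, frames and sequences came from GENCODE M21 on GRCm38; level per kb used the union of annotated exons. Genes named with full values were those called by any of the 3 tools, the 6 of largest fold change in limma and those given after their values were seen. The 35 genes and all lists were chosen with earlier results of these data known. The study's methods speak of 3 mice a condition; the p-values cover only how far these libraries vary, and within each condition no 2 libraries agreed within sampling noise. Columns of per-sample values left out numbered 0.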

Additional observations from a re-analysis of the deposited data

How the results depend on the processing

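Expression calls among the 35 genes were 0 under a pseudocount of 10, other filters, TMM scaling, quantile normalisation, robust variances, edgeR and leaving out each library in turn (lowest 0, highest 0); DESeq2 called 1, Xab2, and the cause was not tested. Leaving out a library other than cKO 1 left only 26 to 36 of all 11001 genes called (130 without cKO 1), so that 0 of 35 says little there. None passed an absolute log2 fold change of 1 under any of these. The 6 genes with full tests kept a positive log2 fold change throughout, with limma, edgeR or DESeq2 adjusted p values from 0.0774 to 0.401 with all libraries for the genes other than Xab2. Without cKO 1, Ppil1 went from 0.31 to 0.19. Splicing calls in these genes were 0 with a minimum of 10 or 50 reads, another dispersion prior, limma on logit inclusion and each value left out (over all SE events 4 were called by limma on logit inclusion and 137 to 198 with 1 value left out); they were 2 at an FDR of 0.05 and 5 points, and 3 at an FDR of 0.05 with no minimum, as those thresholds are looser. The FDR of the Xab2 exon ranged from 6.78e-05 to 0.160 with all values and from 0.000227 to 0.0508 with 1 value left out. That of the Bcas2 A3SS event ranged from 0.0115 to 0.527, and with 1 value left out from 0.0148 to 0.408. The count of genes with all cKO libraries above Control was also taken without each library, an alternative added after the data were seen. It lay between 8 and 16, and it could not fall below 8, so this range is no check of stability. No paired analysis was possible because the library numbers are not shared between Control and cKO.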
